A study of Mus musculus with 9 samples.

Results

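The genes described here are the mouse fibroblast growth factor (FGF) genes, the FGF receptors and the feedback and target genes of the pathway. They were chosen by symbol: every Fgf gene with a number, Fgfr1 to Fgfr4 and Fgfrl1, the Sprouty genes Spry1 to Spry4, Spred1 to Spred3, Dusp6, Il17rd, the ETS factors Etv1, Etv4 and Etv5, and the receptor partner Flrt3. This rule found 40 of the 38197 symbols in the count and FPKM tables, namely 18 secreted ligands, 4 intracellular FGF homologous factors, 5 receptors, 1 receptor partner, 9 feedback regulators and 3 ETS factors. Of these, 27 had enough counts to enter the test and 13 did not.

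Secreted FGFs bind receptor tyrosine kinases together with heparan sulphate and activate the RAS-ERK cascade. ERK signaling turns on Etv4, Etv5, Dusp6 and the Sprouty genes, whose products include ETS transcription factors and inhibitors that act back on the cascade, so these genes are commonly read as signs of FGF activity. In the embryonic hindbrain FGFs from the isthmus and from rhombomere boundaries pattern neighboring tissue, whereas the homologous factors Fgf11 to Fgf14 are not secreted and are known mainly as partners of voltage-gated sodium channels in neurons.

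The study followed mouse E14.1 embryonic stem cells as they became ventral hindbrain neural stem cells (NSCs) in monolayer culture. Time is given as days in differentiation conditions (DDC), and cells carrying prominin-1, found on the surface of progenitors, were isolated by magnetic sorting at 4.5DDC, 5.5DDC and 6.5DDC. All 9 libraries came from wild-type cells of strain 129 exposed to retinoic acid and to the Smoothened agonist SAG at the beginning of differentiation, with 3 libraries per time point. RNA was selected for poly(A) and sequenced, and the question asked here is which FGF genes the NSCs expressed and which of them changed between time points.

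Total counts were 17820601, 11244486 and 14390488 in replicates 1 to 3 at 4.5DDC, 25506193, 11573523 and 11066568 at 5.5DDC, and 12851786, 16479972 and 15913821 at 6.5DDC. The floor used for detection was 3 counts per library, which equals between 0.118 and 0.271 CPM (counts scaled to the library total) and covers counting error only. The libraries numbered replicate 1 stood apart from the others at each time point. The correlation of log2 CPM across tested genes was 0.964 and 0.967 between replicate 1 and replicates 2 and 3 at 4.5DDC, against 0.977 between replicates 2 and 3. At 5.5DDC it was 0.955 and 0.953 against 0.993, and at 6.5DDC it was 0.959 and 0.945 against 0.983. Results are therefore given for all libraries and, where they rest on replicate 1, also without it. The labels do not say whether replicates were separate cultures, so p-values measure the spread between these libraries, which may be technical. They do not say either whether the 6.5DDC libraries were prepared and sequenced with the others. No batch is named, and the column names of all 9 libraries belong to one numbered project series. A label field gives 4, 5 and 6 days where the sample titles give the times used here.

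The sorted cells carried the markers of neural progenitors. Prom1, which encodes prominin-1, had 79.1 ± 14.3 FPKM (fragments scaled for transcript length and library size; mean ± SD, n = 3) at 4.5DDC and 183 ± 27.2 FPKM at 6.5DDC, and the progenitor factor Sox2 had 82.1 ± 5.18 and 87.6 ± 7.37 FPKM. Nkx2-2, which marks the ventral progenitor domain studied, had 11.04 ± 3.16 and 12.9 ± 5.77 FPKM. Of the 8 pluripotent cell markers, Tdgf1 had 1 count or fewer in every library and Pou5f1 at most 2, while Klf4 reached 221 counts and Tfcp2l1 131, and 3 were tested. Of 9 progenitor markers 1 rose from 4.5DDC to 6.5DDC, Prom1, and 2 fell, the progenitor factors Sox3 (log2 fold change -1.80; edgeR adjusted p = 0.0330, range 0.00174 to 0.125) and Nkx6-1 (-1.14; 0.0220, range 0.00126 to 0.0833). Among all tested genes 9.21% rose and 9.53% fell. Sox3 did not pass without replicate 2 of 4.5DDC (0.125), replicate 1 of 6.5DDC (0.0666) or replicate 2 of 6.5DDC (0.118), nor Nkx6-1 without replicate 2 of 4.5DDC (0.0833) or replicate 2 of 6.5DDC (0.0802), so the number that fell was 0 without either replicate 2 and 1 without replicate 1 of 6.5DDC. Neuron markers were also present, and Stmn2, a microtubule regulator of neurons, averaged 108 FPKM over the 9 libraries.

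From 4.5DDC to 6.5DDC, 7 of the 27 tested FGF genes changed at an adjusted p under 0.05 (edgeR quasi-likelihood test, Benjamini-Hochberg adjustment over all 14742 genes tested). The homologous factors Fgf11, Fgf12 and Fgf14 were higher at 6.5DDC, so 3 members rose, beside 9.21% of all tested genes. Fgf15, Fgfr1, Spred2 and Etv5 were lower, so 4 members fell, beside 9.53% of all tested genes. The median log2 fold change was -0.04 over the 27 members and 0.00 over all tested genes, with 12 members above 0 and 15 below. Whether the members moved more or less often than other genes was not tested. Leaving out replicate 2 of 4.5DDC or replicate 2 of 6.5DDC reduced the number of members that fell from 4 to 1 in each case. Other gene lists described below also lost calls without these libraries. The share of all genes called is not given for fits that leave out 1 library. With replicates 2 and 3 only, 5 members rose and 6 fell, and 6 of these 11 were among the 7 of all libraries. In that fit 31.3% of all 14638 genes tested were called, so the larger number of members goes with a larger number of all genes.

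**Figure D1:**
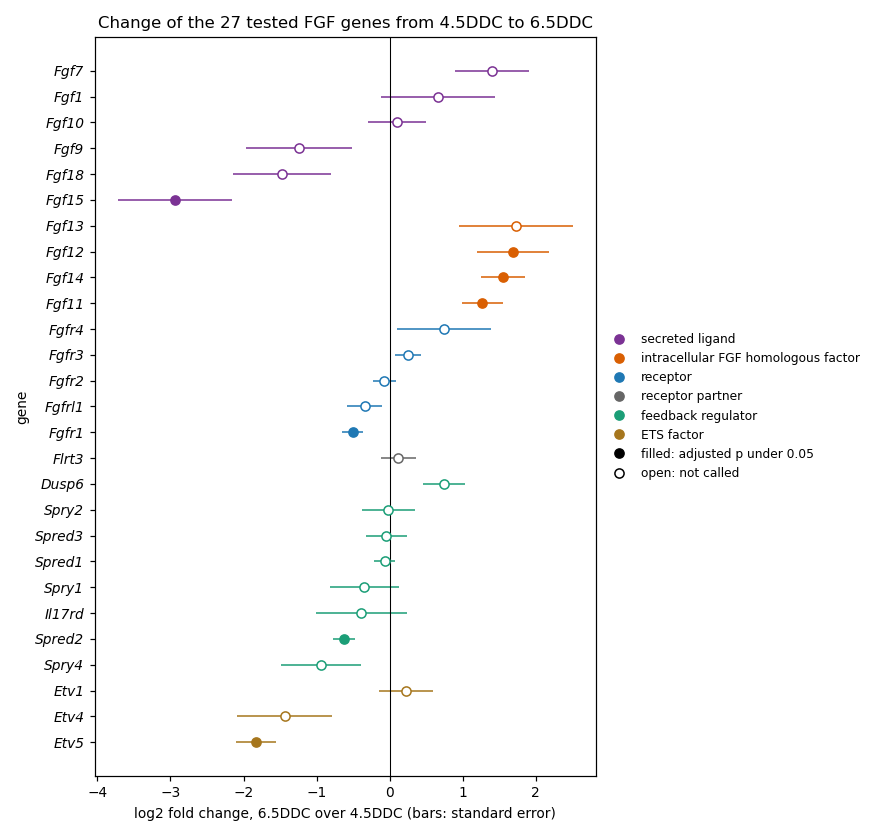
Log2 fold change from 4.5DDC to 6.5DDC of each of the 27 tested FGF genes (horizontal axis), grouped by role, with the standard error as a bar; filled points had an adjusted p under 0.05. The 4 homologous factors lie above 0 and 3 of them are filled, while Fgf15, Fgfr1, Spred2 and Etv5 are the filled points below 0.

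Within single intervals no member passed the test. From 4.5DDC to 5.5DDC edgeR called 0 of 27 members, beside 0.0746% of all tested genes; 4 members had an unadjusted p under 0.05, DESeq2 called 1 (Etv5) beside 495 of the 13018 genes to which it gave an adjusted p, and limma on voom values or on log2(FPKM + 1) called 0. From 5.5DDC to 6.5DDC edgeR again called 0 of 27, beside 0.224% of all tested genes; 5 members had an unadjusted p under 0.05, DESeq2 called 3 (Fgf14, Fgfr1 and Spred2) beside 671 of 13303, and limma called 0 on either kind of value. With replicates 2 and 3 only, edgeR called 1 member in the first interval (Etv5) and 2 in the second (Fgf12 and Fgf13), beside 3.31% and 4.97% of all genes. A term for replicate 1 gave 1 (Fgf15) and 4 (Fgf12, Fgf13, Fgf14 and Spred2), beside 3.28% and 4.3%. For any difference between the 3 time points, 5 members were called (Etv5, Fgf11, Fgf14, Fgf15 and Spred2), beside 9.63% of all tested genes. That number was 1 without replicate 2 of 4.5DDC, replicate 2 of 6.5DDC or replicate 3 of 6.5DDC, 2 without replicate 1 or replicate 3 of 4.5DDC or replicate 2 or replicate 3 of 5.5DDC, and 3 without replicate 1 of 5.5DDC or replicate 1 of 6.5DDC. It was 8 with replicates 2 and 3 only, beside 22.7% of all genes.

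Most secreted ligand genes had few or no counts in these NSCs, and 6 of the 18 were tested. Of 18 genes, Fgf4, Fgf6, Fgf16, Fgf20 and Fgf21 had 0 counts in all 9 libraries, and Fgf8, Fgf22 and Fgf23 each had a single count in 1 library. Fgf8, the ligand of the isthmus, had its count in replicate 1 of 4.5DDC. Fgf2, Fgf3, Fgf5 and Fgf17 had at most 14 counts in any library and were not tested, and such levels do not allow a difference to be seen at this depth. The sum over all 18 ligands was 4.33 ± 1.67, 2.87 ± 0.416 and 3.18 ± 0.127 FPKM (SD, n = 3) at 4.5DDC, 5.5DDC and 6.5DDC. By comparison, the 5 receptors summed to 200.5 ± 12.8, 236 ± 6.53 and 204 ± 31.5 FPKM.

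**Figure D2:**
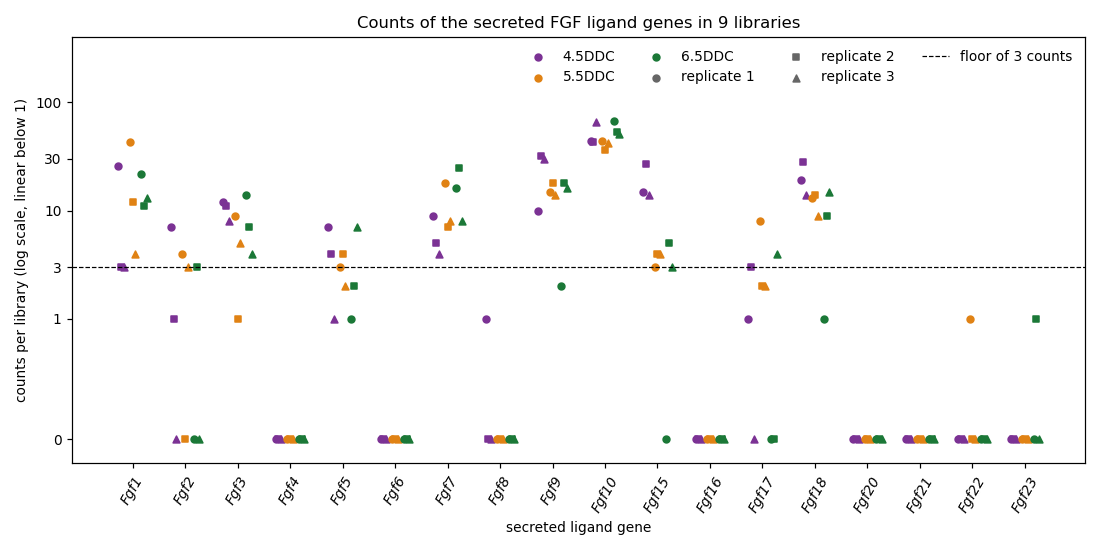
Counts of each of the 18 secreted ligand genes (horizontal axis) in each of the 9 libraries, on a vertical axis that is logarithmic above 1 and linear below; colors mark the time points, shapes the replicates, and the broken line the floor of 3 counts. Fgf10 is above the floor in every library, and Fgf15 lies at 14 to 27 counts at 4.5DDC and at 0 to 5 counts later.

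Fgf15, the mouse counterpart of human FGF19 and known as a target of Shh signaling in the embryonic neural tube, was the ligand that fell. It had 15, 27 and 14 counts in replicates 1 to 3 at 4.5DDC, 3, 4 and 4 counts at 5.5DDC, and 0, 5 and 3 counts at 6.5DDC. All libraries of 4.5DDC were above all later libraries, and the 5.5DDC and 6.5DDC libraries overlapped. On the FPKM scale the means were 0.657 ± 0.409, 0.129 ± 0.0645 and 0.0765 ± 0.0714 (SD, n = 3). Between 4.5DDC and 6.5DDC the fitted log2 fold change was -2.94 ± 0.78 (SE; edgeR adjusted p = 0.0291), and since the later counts were near the floor its size depends on the prior count. The difference was -2.88 within replicate 1 and -2.20 within replicates 2 and 3. In the first interval only the fit with a term for replicate 1 called it (adjusted p = 0.0469, against 0.204 with all libraries and no such term). Over both intervals its call was not reached without replicate 2 of 4.5DDC (adjusted p = 0.114), replicate 2 of 6.5DDC (0.0592) or replicate 3 of 6.5DDC (0.0738), and over 21 alternatives the adjusted p ranged from 0.00416 to 0.114. Fgf15 lies at chr7:144896531-144900953 (GRCm38), and 25.7% of its exonic bases overlap exons of Gm26793 and Gm39119 on the opposite strand; whether counting used strand is not given in the sources used here, so reads from these genes cannot be told apart.

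Fgf18, a ligand with a high affinity for Fgfr3, had the highest mean FPKM of the secreted ligands over the 9 libraries, though not at 6.5DDC (0.479, against 0.925 for Fgf10), and was the only one to average 1 FPKM or more at a time point. Its values were 1.01, 2.38 and 0.724 FPKM at 4.5DDC, then 0.487, 1.08 and 0.782 at 5.5DDC and 0.0755, 0.460 and 0.900 at 6.5DDC. The FPKM values of the 3 time points overlapped, and the lowest came from replicate 1 of 6.5DDC, with 1 count. In CPM the 4.5DDC libraries (0.973 to 2.49) were above those of 6.5DDC (0.0778 to 0.943). At 6.5DDC relative to 4.5DDC the log2 fold change was -1.47 ± 0.67 (SE; edgeR adjusted p = 0.148; range 0.0408 to 0.437 over 22 alternatives). Fgf10, which signals through Fgfr2 in many epithelia, ranged from 0.332 to 1.48 FPKM over the 9 libraries and had 36 to 67 counts. Fgf1, Fgf7 and Fgf9 reached at most 0.826, 0.703 and 1.14 FPKM in any library and none was called, although Fgf7 had an adjusted p of 0.0345 without replicate 3 of 6.5DDC (0.0802 with all libraries and 0.0345 to 0.189 over its alternatives). Fgf9 had an adjusted p of 0.0269 with replicates 2 and 3 only, against 0.245 with all libraries and a range of 0.0263 to 0.558.

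The Fgf genes with the highest mean FPKM over the 9 libraries were the 4 intracellular homologous factors, although at 4.5DDC Fgf11 (1.061 FPKM on average) was below Fgf18 (1.37). Fgf11, Fgf12, Fgf13 and Fgf14 together had 13.0 ± 5.90 FPKM at 4.5DDC, then 19.2 ± 7.24 at 5.5DDC and 33.2 ± 3.40 at 6.5DDC (SD, n = 3), about 10-fold more than the 18 secreted ligands at the last time point. Each had a positive log2 fold change from 4.5DDC to 6.5DDC in all 22 alternatives, the 2 other scalings included, with a median of 1.62 over the 4 genes. With all libraries 3 of 4 were called higher, beside 9.21% of all tested genes. In bulk samples more cells of a type and more RNA per cell cannot be told apart.

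Fgf14, a regulator of sodium channel function in neurons, had 1.56, 1.47 and 2.18 FPKM in replicates 1 to 3 at 4.5DDC, 1.82, 3.01 and 3.10 at 5.5DDC and 3.62, 6.19 and 5.64 at 6.5DDC. All 6.5DDC libraries were above all earlier ones, and replicate 1 was the lowest library of its time point at 5.5DDC and 6.5DDC. Its log2 fold change between the first and last time points was 1.55 ± 0.30 (SE; edgeR adjusted p = 0.00911), and the call held in all 22 alternatives. Replicate 1 alone gave 1.27, and replicates 2 and 3 gave 1.67.

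Fgf11, a less studied member of the same group, had 1.02, 1.23 and 0.933 FPKM at 4.5DDC, then 1.203, 2.24 and 2.38 at 5.5DDC and 2.45, 2.28 and 2.89 at 6.5DDC. The 4.5DDC and 6.5DDC libraries did not overlap. Replicate 1 of 5.5DDC lay among the 4.5DDC libraries in FPKM, but above them in CPM (4.47 against 3.13 to 4.18). Between 4.5DDC and 6.5DDC the log2 fold change was 1.27 ± 0.28 (SE; edgeR adjusted p = 0.0144). Replicate 1 alone gave 1.24, and replicates 2 and 3 gave 1.23. The call was lost in 1 of 22 alternatives, limma on log2(FPKM + 1) without a filter (adjusted p = 0.0546; range over the alternatives 0.00055 to 0.0546).

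Fgf12, which also binds sodium channels, had 5.62, 1.64 and 1.88 FPKM at 4.5DDC, then 6.68, 3.72 and 3.28 at 5.5DDC and 14.5, 8.60 and 6.69 at 6.5DDC. Replicate 1 was the highest library at each time point, so that replicate 1 of 4.5DDC was above replicates 2 and 3 of 5.5DDC, while the 6.5DDC libraries were above all others in FPKM. That gap was narrow, at 6.69 against 6.68 FPKM, and in CPM the 5.5DDC and 6.5DDC libraries overlapped. At 6.5DDC relative to 4.5DDC the log2 fold change was 1.69 ± 0.50 (SE; edgeR adjusted p = 0.0417). Replicate 1 alone gave 1.40, and replicates 2 and 3 gave 2.04. Its call was not reached without replicate 2 of 4.5DDC (adjusted p = 0.132), replicate 3 of 4.5DDC (0.114), replicate 2 of 5.5DDC (0.0594), replicate 3 of 5.5DDC (0.0562), replicate 1 of 6.5DDC (0.0989) or replicate 2 of 6.5DDC (0.0895). With replicates 2 and 3 only, the adjusted p was 0.00116, and over 22 alternatives it ranged from 0.000326 to 0.132.

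Fgf13, which has been linked to microtubules as well as to sodium channels, was the most abundant of the 4 by mean FPKM. In replicate 1, however, Fgf12 had more FPKM than Fgf13 at each time point. The values of Fgf13 were 1.43, 15.5 and 4.56 FPKM at 4.5DDC, then 3.08, 18.1 and 9.12 at 5.5DDC and 8.86, 17.0 and 20.9 at 6.5DDC. Replicate 1 was the lowest library at each time point and the time points overlapped. The deposited scales differed for this gene, since 1 CPM corresponded to between 0.438 and 1.64 FPKM across libraries; in CPM the 6.5DDC libraries, at 17.8, 38.9 and 31.7, were above the 4.5DDC libraries, at 2.47, 13.9 and 10.3. The log2 fold change of the counts was 1.73 ± 0.78 (SE; edgeR adjusted p = 0.142) with all libraries and 1.51 ± 0.22 (adjusted p = 0.00204) with replicates 2 and 3 only. Replicates 1 to 3 gave 2.87, 1.51 and 1.498 in turn, all of the same sign. The edgeR adjusted p was 0.0416 without replicate 1 of 5.5DDC, 0.00425 with a term for replicate 1 and 0.00918 with a replicate block. Over 22 alternatives the range was 0.00204 to 0.343.

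**Figure D3:**
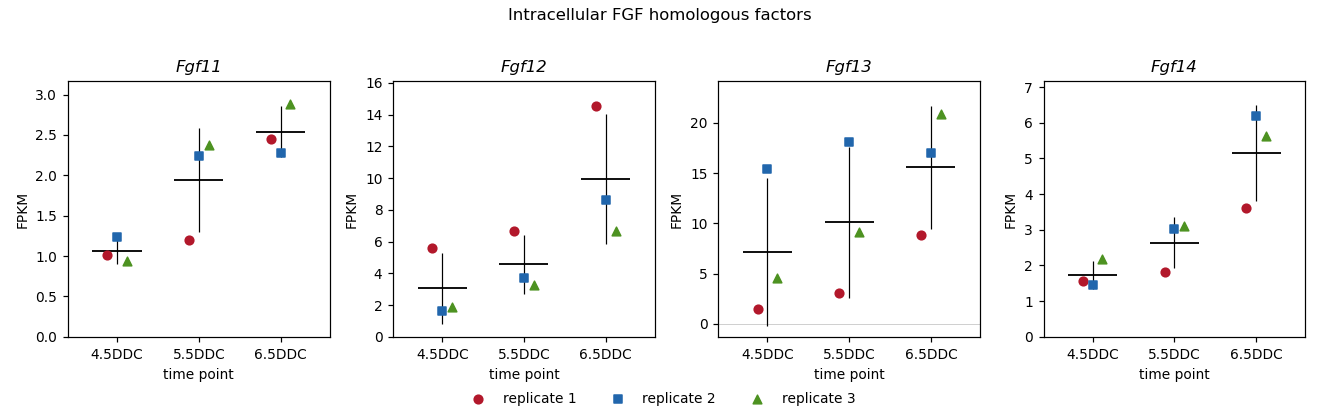
FPKM of Fgf11, Fgf12, Fgf13 and Fgf14 (vertical axes from 0, separate for each gene) in each library at 4.5DDC, 5.5DDC and 6.5DDC; shapes mark the replicates, horizontal bars the means and vertical bars the SD of 3 libraries. The 6.5DDC libraries lie above the 4.5DDC libraries for Fgf11, Fgf12 and Fgf14, and replicate 1 is the lowest library of each time point for Fgf13.

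Some neuron markers also rose between these time points. The 8 neuron markers found in the tables summed to 203, 459 and 333 FPKM in replicates 1 to 3 at 4.5DDC, 183, 552 and 580 at 5.5DDC and 323, 723 and 739.9 at 6.5DDC. Replicate 1 was the lowest library at each time point, as it was for Fgf13, whereas Fgf12 was highest in replicate 1. Of the 8 markers, 2 rose from 4.5DDC to 6.5DDC and 0 fell, beside 9.21% and 9.53% of all tested genes. Their median log2 fold change was 1.03. With replicates 2 and 3 only 5 rose, as with a term for replicate 1. In these fits 31.3% and 29.7% of all genes were called in either direction. Elavl3 and Nefm had log2 fold changes of 0.04 and -0.14 with all libraries and were not called. Those that rose with all libraries were Syt1, a synaptic vesicle calcium sensor, from 2.23 ± 0.640 to 20.4 ± 3.64 FPKM (edgeR adjusted p = 0.00133), and Map2, a dendritic microtubule protein, from 47.9 ± 2.87 to 153 ± 64.6 FPKM (adjusted p = 0.00768). No neuron marker was at 0 in any library. The part of neurons in the change of the homologous factors was not tested.

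Promoter sequences are shown for some called members, with the GGAA core of sites that ETS factors bind. Binding of ETS factors to these sequences was not tested. RefSeq promoters (GRCm38.p6) matched 30 of the 40 members with 39 entries, and 5 of the 7 members called from 4.5DDC to 6.5DDC; Fgf15 and Fgfr1 had no entry. The 250 bases before the start were searched on both strands for GGAA and for CCGGAAG, which contains GGAA. The most upstream window without an annotated exon is printed for Etv5, Fgf12 and Fgf11, the 3 called members that have such a window, each on the minus strand and written 5′ to 3′, with GGAA or its reverse complement TTCC in capitals. The Etv5 window (chr16:22438369-22438618) lies in an intron of Etv5, and those of Fgf12 (chr16:28753244-28753493) and Fgf11 (chr11:69802281-69802530) lie outside annotated genes.
Etv5: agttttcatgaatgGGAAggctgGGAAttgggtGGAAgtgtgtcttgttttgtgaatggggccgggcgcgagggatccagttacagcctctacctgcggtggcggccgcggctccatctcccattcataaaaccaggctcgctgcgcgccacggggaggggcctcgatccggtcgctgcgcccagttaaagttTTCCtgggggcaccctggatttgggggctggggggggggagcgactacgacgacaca
Fgf12: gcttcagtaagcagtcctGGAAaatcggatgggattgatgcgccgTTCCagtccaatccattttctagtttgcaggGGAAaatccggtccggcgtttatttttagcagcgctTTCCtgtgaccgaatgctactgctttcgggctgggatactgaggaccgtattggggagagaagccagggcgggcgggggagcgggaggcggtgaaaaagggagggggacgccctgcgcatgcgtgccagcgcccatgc
Fgf11: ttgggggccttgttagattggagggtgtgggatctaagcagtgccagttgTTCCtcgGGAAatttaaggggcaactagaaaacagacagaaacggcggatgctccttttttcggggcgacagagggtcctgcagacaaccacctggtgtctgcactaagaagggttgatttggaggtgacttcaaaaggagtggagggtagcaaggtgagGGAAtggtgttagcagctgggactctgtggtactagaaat
GGAA occurred 4 times in the Etv5 window, 4 times in that of Fgf12 and 3 times in that of Fgf11. It was present in 8 of the 9 windows of called members and in 93.4% of the 32851 promoter windows in the table, so its presence does not set these genes apart. The choice of windows without exons was made after the sequences had been seen, because the most upstream windows of Etv5 and Fgf14 overlap exons of these genes. It replaced the Etv5 window at chr16:22439571-22439820, in which GGAA occurred 0 times, by the printed one with 4. The bases after the start of the 3 printed windows matched no GENCODE transcript of the gene, whereas 31 of the 39 entries did match. CCGGAAG occurred in 0 of the 9 windows, against 6.91% of all windows.

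Of the receptor genes, Fgfr1, Fgfr2 and Fgfr3 each had at least 27.4 FPKM in every library while Fgfr4 was low, and the order of the 5 by mean FPKM was Fgfr3, Fgfr2, Fgfr1, Fgfrl1 and Fgfr4. Fgfr3, a receptor known from neural progenitors and astroglia, had 80.5, 72.0 and 65.8 FPKM at 4.5DDC, then 101, 108 and 121 at 5.5DDC and 89.9, 84.9 and 116 at 6.5DDC. All 4.5DDC libraries were below all later ones in FPKM, while the 5.5DDC and 6.5DDC libraries overlapped. In CPM the 4.5DDC and 6.5DDC libraries of Fgfr3 overlapped too, and within replicate 1 the difference of log2 CPM was -0.14. With all libraries the log2 fold change of Fgfr3 between the first and last time points was 0.25 ± 0.18 (SE; edgeR adjusted p = 0.334), and 13.9% of its exonic bases overlap exons of G630022F23Rik on the opposite strand. Fgfr2 ranged from 48.3 to 75.3 FPKM over the 9 libraries, with a log2 fold change of -0.07 ± 0.16 (SE; adjusted p = 0.769).

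Fgfr1, the main receptor of early neural tissue, was the receptor that fell. It had 50.2, 61.6 and 40.1 FPKM in replicates 1 to 3 at 4.5DDC, 68.2, 48.1 and 45.6 at 5.5DDC and 28.8, 27.4 and 39.6 at 6.5DDC. All 6.5DDC libraries were below all earlier ones, although replicate 3 of 6.5DDC was close to replicate 3 of 4.5DDC, and the 4.5DDC and 5.5DDC libraries overlapped. Between 4.5DDC and 6.5DDC the log2 fold change was -0.51 ± 0.15 (SE; edgeR adjusted p = 0.0386). Replicate 1 alone gave -0.60, and replicates 2 and 3 gave -0.47. Its call was not reached without replicate 1 of 4.5DDC (adjusted p = 0.0825), replicate 2 of 4.5DDC (0.119), replicate 2 of 5.5DDC (0.0611), replicate 3 of 5.5DDC (0.0616), replicate 1 of 6.5DDC (0.0708) or replicate 2 of 6.5DDC (0.140), nor with replicates 2 and 3 only (0.0624). It held in 8 of 22 alternatives, over which the adjusted p ranged from 0.0156 to 0.140 and the sign did not change.

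At 4.5DDC the FPKM values of Fgfr2 overlapped those of Fgfr3 and of Fgfr1, while Fgfr3 (65.8 to 80.5) was above Fgfr1 (40.1 to 61.6). At 6.5DDC the 3 genes were separate, with Fgfr1 at 27.4 to 39.6 FPKM, Fgfr2 at 49.8 to 75.3 FPKM and Fgfr3 at 84.9 to 116 FPKM. Fgfrl1, a receptor-like protein without a kinase domain, had 13.1 ± 3.31 FPKM at 4.5DDC and 10.5 ± 3.51 FPKM at 6.5DDC (adjusted p = 0.326). Fgfr4 did not exceed 0.454 FPKM in any library. Flrt3, a membrane protein that binds FGF receptors, had 4.03 ± 0.286, 3.42 ± 0.875 and 4.26 ± 0.645 FPKM at the 3 time points, with overlapping libraries (adjusted p = 0.762 from 4.5DDC to 6.5DDC); its counts were not all whole and were rounded.

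**Figure D4:**
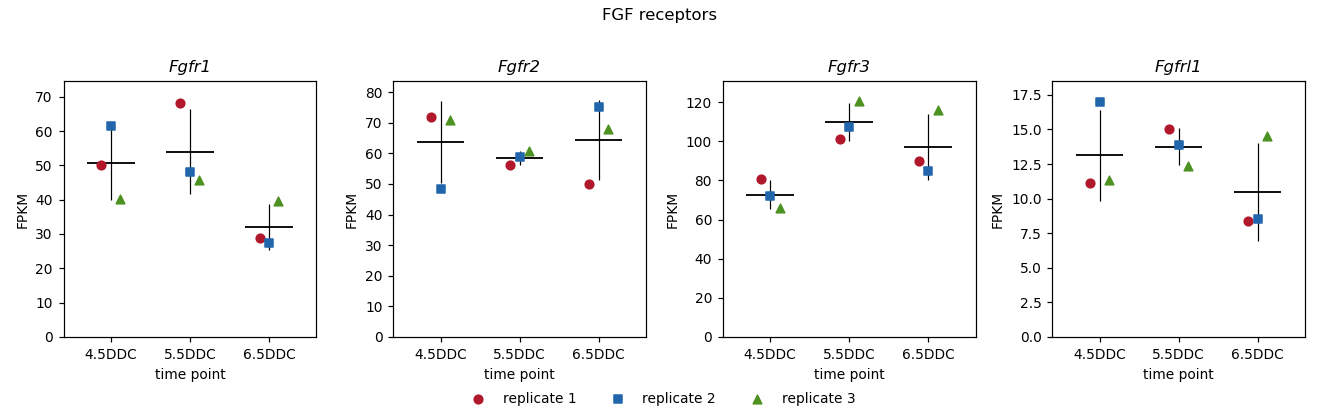
FPKM of Fgfr1, Fgfr2, Fgfr3 and Fgfrl1 (vertical axes from 0, separate for each gene) in each library at 4.5DDC, 5.5DDC and 6.5DDC; shapes mark the replicates, horizontal bars the means and vertical bars the SD of 3 libraries. Fgfr1 lies between 27.4 and 39.6 FPKM at 6.5DDC, below every earlier library, and Fgfr2 overlaps at all time points.

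Among feedback regulators, 1 of 8 tested genes changed from 4.5DDC to 6.5DDC, and it fell, beside 9.53% of all tested genes. Spred2, an inhibitor of RAS-ERK signaling, had 11.6, 13.3 and 11.8 FPKM at 4.5DDC, then 13.1, 11.8 and 12.3 at 5.5DDC and 6.20, 8.35 and 9.50 at 6.5DDC. All 6.5DDC libraries were below all earlier ones, and the earlier time points overlapped. At 6.5DDC relative to 4.5DDC the log2 fold change was -0.63 ± 0.15 (SE; edgeR adjusted p = 0.0198). Replicate 1 alone gave -0.85, and replicates 2 and 3 gave -0.53. Its call was not reached without replicate 2 of 4.5DDC (adjusted p = 0.0709) or replicate 2 of 6.5DDC (0.0543), and the range over 22 alternatives was 0.0021 to 0.0709. The other Spred genes were not called, with 17.8 to 24.0 FPKM for Spred1 and 3.68 to 7.45 FPKM for Spred3 over the 9 libraries.

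Dusp6, a phosphatase that inactivates ERK, was the most abundant feedback gene. It had 26.7, 31.8 and 43.3 FPKM at 4.5DDC, then 63.3, 40.8 and 39.8 at 5.5DDC and 36.9, 73.0 and 62.9 at 6.5DDC. The time points overlapped, and replicate 1 was the highest library at 5.5DDC and the lowest at 4.5DDC and 6.5DDC. Its log2 fold change between the first and last time points was 0.74 ± 0.29 (SE; edgeR adjusted p = 0.102), a sign opposite to that of Spred2. It was 0.80 ± 0.20 (adjusted p = 0.0183) with replicates 2 and 3 only, and the adjusted p was 0.0376 without replicate 1 of 6.5DDC, in a range of 0.0183 to 0.319 over 22 alternatives.

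The Sprouty genes, which encode inhibitors of receptor tyrosine kinase signaling, differed in level. Spry2 ranged from 2.44 to 6.61 FPKM, Spry1 from 0.556 to 3.28 FPKM and Spry4 from 0.141 to 0.842 FPKM, and Spry3 had 0 counts in every library. None was called with all libraries. Spry4 had a log2 fold change of -0.94 ± 0.55 (SE; adjusted p = 0.247) with all libraries and -1.01 ± 0.31 (adjusted p = 0.0381) with replicates 2 and 3 only, in a range of 0.0324 to 0.519. Of the exonic bases of Spry1, 24.4% overlap exons of Gm42922 on the opposite strand. Il17rd, a membrane protein that dampens FGF signaling, had 1.70, 2.31 and 1.08 FPKM in replicate 1 of 4.5DDC, 5.5DDC and 6.5DDC and 4.84 to 7.11 FPKM in all replicate 2 and 3 libraries.

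Of the ETS factors, Etv5 fell and had the smallest adjusted p of the 27 members. Etv5, a transcription factor induced by FGF signaling, had 5.17, 9.30 and 8.01 FPKM in replicates 1 to 3 at 4.5DDC, 4.89, 3.71 and 4.53 at 5.5DDC and 2.55, 2.04 and 1.71 at 6.5DDC. The 3 time points did not overlap, and replicate 1 was the lowest library at 4.5DDC and the highest at the later time points. Between 4.5DDC and 6.5DDC the log2 fold change was -1.83 ± 0.27 (SE; edgeR adjusted p = 0.00325). Replicate 1 alone gave -0.999, and replicates 2 and 3 gave -2.15. The call held in all 22 alternatives. A promoter window of Etv5 is among the sequences printed with the homologous factors. In the first interval replicate 1 alone gave -0.14 and replicates 2 and 3 gave -1.33; the edgeR adjusted p was 0.173 with all libraries and 0.0218 with replicates 2 and 3 only (range 0.0218 to 0.463).

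Etv4, a related factor, had 0.519, 2.39 and 1.75 FPKM at 4.5DDC, then 0.583, 0.888 and 1.87 at 5.5DDC and 0.307, 0.666 and 0.681 at 6.5DDC. The time points overlapped, and replicate 1 was the lowest library at each. At 6.5DDC relative to 4.5DDC the log2 fold change was -1.44 ± 0.65 (SE; edgeR adjusted p = 0.144) with all libraries and -1.77 ± 0.30 (adjusted p = 0.00402) with replicates 2 and 3 only. Within replicates 2 and 3 the differences of log2 CPM were -1.72 and -1.63. Within replicate 1 the value was 0.18, on 14 and 11 counts, while its FPKM went the other way. Without replicate 1 of 4.5DDC the adjusted p was 0.0309, in a range of 0.00402 to 0.413 over 22 alternatives. Etv1 ranged from 1.95 to 4.88 FPKM and was not called (adjusted p = 0.700).

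**Figure D5:**
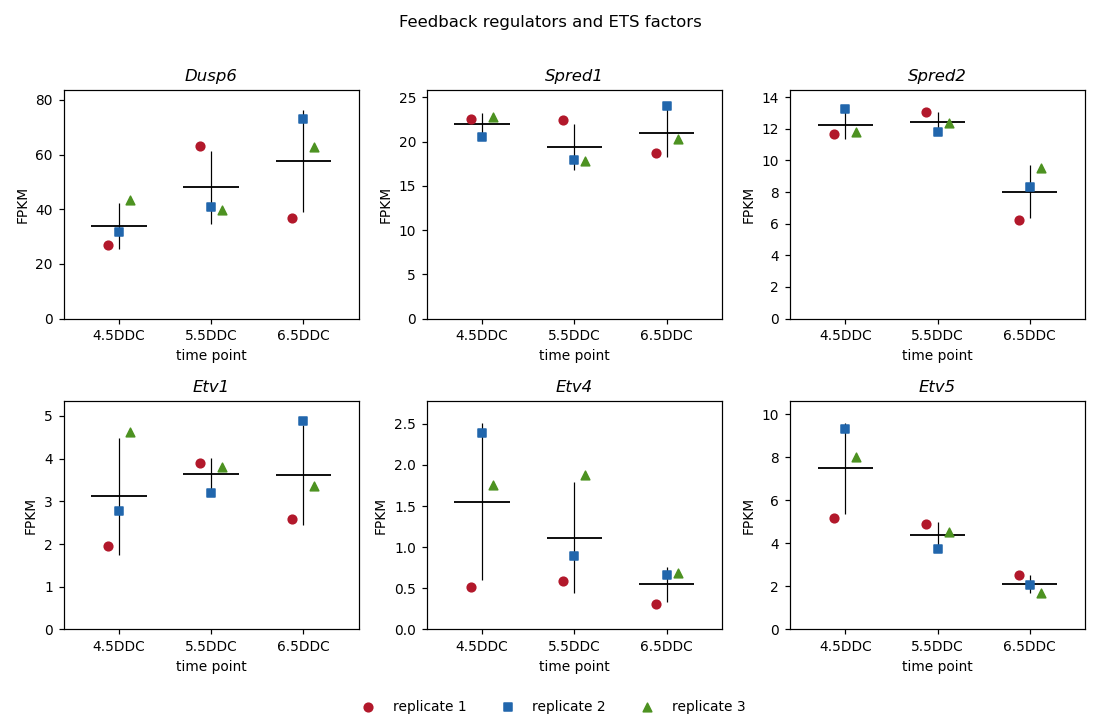
FPKM of Dusp6, Spred1, Spred2, Etv1, Etv4 and Etv5 (vertical axes from 0, separate for each gene) in each library at 4.5DDC, 5.5DDC and 6.5DDC; shapes mark the replicates, horizontal bars the means and vertical bars the SD of 3 libraries. Etv5 is separate at the 3 time points, Spred2 is lower at 6.5DDC than before, and Dusp6 overlaps.

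Genes that act with FGFs at the cell surface moved in both directions. Of 25 tested genes for syndecans, glypicans, heparan sulphate enzymes and FGF-binding proteins, 2 rose and 3 fell from 4.5DDC to 6.5DDC, near the shares of all tested genes (9.21% and 9.53%), and their median log2 fold change was 0.24. Sdc1, a syndecan that carries heparan sulphate, fell from 39.8 ± 12.1 to 11.7 ± 1.53 FPKM (SD, n = 3; edgeR adjusted p = 0.00151), and Hs6st2, a heparan sulphate sulfotransferase, fell from 7.77 ± 0.287 to 2.88 ± 0.828 FPKM (adjusted p = 0.00458). Both calls held in all 22 alternatives. Sulf1, which removes sulphate from heparan sulphate, rose from 233 ± 94.9 to 507.4 ± 121 FPKM (adjusted p = 0.0363). It did not pass without replicate 2 (adjusted p = 0.111) or replicate 3 (0.0893) of 4.5DDC, replicate 2 (0.0512) or replicate 3 (0.0548) of 5.5DDC, and replicate 1 (0.0880) or replicate 2 (0.0825) of 6.5DDC, in a range of 0.00128 to 0.111. Sdc2, another syndecan, rose from 21.95 ± 5.06 to 37.3 ± 3.82 FPKM (adjusted p = 0.0359). It did not pass without replicate 2 (adjusted p = 0.130) or replicate 3 (0.0880) of 4.5DDC, replicate 2 of 5.5DDC (0.0522), and replicate 2 (0.125) or replicate 3 (0.0563) of 6.5DDC, in a range of 0.00358 to 0.130. The number that rose was 0 without replicate 2 of 4.5DDC, 5.5DDC or 6.5DDC, and 1 without replicate 3 of 4.5DDC, 5.5DDC or 6.5DDC. Without the 3 replicate 1 libraries 6 rose and 3 fell, beside 31.3% of all genes called in either direction.

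In the RAS-ERK cascade few genes were called with all libraries. Of 25 tested adaptors, RAS, RAF, MEK and ERK genes and regulators, 0 rose and 1 fell from 4.5DDC to 6.5DDC, beside 9.21% and 9.53% of all tested genes. The median log2 fold change of the list was 0.03. The gene that fell was Map2k2, which encodes MEK2, from 37.3 ± 22.1 to 14.4 ± 4.36 FPKM (SD, n = 3; edgeR adjusted p = 0.0292). The number was 0 without replicate 2 of 4.5DDC (adjusted p of Map2k2 = 0.1002), replicate 1 of 6.5DDC (0.0589) or replicate 2 of 6.5DDC (0.110), in a range of 0.00178 to 0.146. It was also 0 with limma on voom values or on each of the 3 FPKM settings, and in the fit of the 6 libraries compared. Map2k2 was called in 13 of 22 alternatives. With replicates 2 and 3 only 2 genes of the list rose and 1 fell, and with a term for replicate 1 the numbers were 0 and 4. Of all genes, 31.3% and 29.7% were called in either direction in these fits.

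Of 19 tested ERK phosphatases and ERK-responsive genes other than the members, 2 rose and 1 fell, beside 9.21% and 9.53% of all tested genes. The median log2 fold change of this list was 0.03. The cell cycle gene Ccnd1 fell from 119 ± 20.7 to 26.3 ± 19.4 FPKM (SD, n = 3; edgeR adjusted p = 0.0134), and the immediate early gene Egr1 rose from 9.99 ± 3.49 to 31.3 ± 9.57 FPKM (adjusted p = 0.0129). Both calls were lost only without replicate 2 of 6.5DDC, with adjusted p = 0.0598 (range 1.63e-05 to 0.0598) for Ccnd1 and 0.0505 (range 7.07e-05 to 0.0505) for Egr1. Dusp14, a phosphatase of MAP kinases, rose from 6.43 ± 1.63 to 10.1 ± 1.22 FPKM (adjusted p = 0.0329). It did not pass without replicate 1 (adjusted p = 0.0934), replicate 2 (0.0529) or replicate 3 (0.0756) of 4.5DDC, replicate 2 (0.0598) or replicate 3 (0.0561) of 5.5DDC, and replicate 2 (0.0689) or replicate 3 (0.0783) of 6.5DDC, in a range of 0.00439 to 0.102. The number that rose was 1 without each of these libraries other than replicate 3 of 4.5DDC (2) and replicate 2 of 6.5DDC (0). The number that fell was 0 without replicate 2 of 6.5DDC and 2 without replicate 1 of 6.5DDC. Without the 3 replicate 1 libraries 2 rose and 3 fell, while DESeq2 and a term for replicate 1 each gave 4 that rose and 2 that fell. In these fits 31.3%, 26% and 29.7% of all genes with an adjusted p were called in either direction. Of 7 tested genes of the isthmus and rhombomeres, the regions that hold FGF sources in the embryo, 0 were called with all libraries and 1 rose with replicates 2 and 3 only or with a term for replicate 1.

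Some glial markers rose between 4.5DDC and 6.5DDC. Of 8 tested radial glia and astroglia markers 5 rose and 0 fell, beside 9.21% and 9.53% of all tested genes. With all libraries Sox9 (log2 fold change 1.39) and Aldoc (-0.24) were not called. The number that rose was 7 with replicates 2 and 3 only, DESeq2, a replicate block or a term for replicate 1. In these fits 31.3%, 26%, 23.2% and 29.7% of all genes with an adjusted p were called in either direction. The number that rose was 3 with limma on log2(FPKM + 1) without a filter. The 10 genes of the list summed to 196, 478 and 545 FPKM in replicates 1 to 3 at 4.5DDC, 322, 704 and 717 at 5.5DDC and 752, 1012 and 849 at 6.5DDC. Fabp7, a fatty acid-binding protein of radial glia, made up most of these sums, at 546 FPKM on average, is also in the list of neural progenitor markers and was not called (edgeR adjusted p = 0.126). The astrocyte markers Gfap and S100b did not exceed 7 counts and 1 count in any library. Those that rose included Nfib (log2 fold change 2.18) and Nfia (1.96), transcription factors of gliogenesis, Aldh1l1 (2.06), a folate enzyme, and Slc1a3 (1.74), a glutamate transporter, and their calls held without each library. Nfib kept its call in 21 of 22 alternatives, and Nfia, Aldh1l1 and Slc1a3 kept theirs in all 22.

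Of 6 tested floor plate markers 5 rose and 0 fell, beside 9.21% and 9.53% of all tested genes. The 7 genes summed to 893, 582 and 584 FPKM at 4.5DDC, then 1648, 1131 and 1139.7 at 5.5DDC and 1345, 1307 and 1432 at 6.5DDC. Ntn1, the netrin of the floor plate, averaged 381 FPKM over the 9 libraries. Without single libraries the floor plate count was 2 (replicate 2 or 3 of 4.5DDC, replicate 2 or 3 of 6.5DDC) or 3 (replicate 2 or 3 of 5.5DDC, replicate 1 of 6.5DDC). Ferd3l (log2 fold change 1.92) and Spon1 (1.54), a repressor and a secreted protein of the floor plate, held their calls in all 22 alternatives. The ligand Shh (0.79; edgeR adjusted p = 0.0321, range 0.00366 to 0.114) did not pass without replicate 2 (0.113) or replicate 3 (0.0769) of 4.5DDC and replicate 2 (0.114) or replicate 3 (0.0599) of 6.5DDC.

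Neural crest and mesenchyme markers summed to 5.84, 14.4 and 7.90 FPKM at 4.5DDC, then 12.1, 28.3 and 25.54 at 5.5DDC and 14.6, 42.0 and 56.0 at 6.5DDC, with Col3a1 at 8.94 FPKM on average over the 9 libraries and the crest marker Foxd3 at no more than 1 count in any library. Of 7 tested markers 2 rose and 0 fell, beside 9.21% and 9.53% of all tested genes. The number that rose was 0 without replicate 1, 2 or 3 of 4.5DDC, or replicate 2 of 5.5DDC or 6.5DDC. It was 1 without replicate 3 of 5.5DDC or 6.5DDC, and 3 without replicate 1 of 5.5DDC or 6.5DDC. In replicates 2 and 3 alone 4 rose, and with a term for replicate 1 the number was 6. In these fits 31.3% and 29.7% of all genes were called in either direction. Twist1, a factor of mesenchyme, rose from 4.98 ± 0.46 to 8.45 ± 0.70 FPKM (edgeR adjusted p = 0.0276, range 0.00331 to 0.0792). It did not pass without replicate 1 (0.0770), replicate 2 (0.0714) or replicate 3 (0.0609) of 4.5DDC, replicate 2 of 5.5DDC (0.0544), and replicate 1 (0.0531) or replicate 2 (0.0792) of 6.5DDC. These sums were lower in replicate 1 than in replicates 2 and 3 for glia and for crest at each time point. The part of these cells in the changes of the FGF genes was not tested.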

How the data were processed

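Poly(A) RNA of prominin-1 sorted NSCs was analysed in 9 libraries, 3 per time point, grouped by the differentiation time in the labels. The authors mapped reads to GRCm38 with TopHat2 2.0.4 and deposited counts per gene from HTSeq 0.6.1; 98 of 38197 symbols, Flrt3 among them, held values that were not whole. The deposited counts were therefore treated in the same way that estimated or expected counts are, and rounded; how the fractions arose is not given in the sources used here. The authors computed FPKM with Cufflinks 2.1.1, and the deposited FPKM were used as levels. A table of log2 voom values was not used.

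Counts were filtered with filterByExpr (14742 genes kept), scaled by TMM (factors 0.951 to 1.04) and fitted with edgeR 4.0.16 (glmQLFit, glmQLFTest) in R 4.3.3, with the time point as the factor and 9 libraries in the fit. Genes were called at an adjusted p under 0.05 (Benjamini-Hochberg over all genes tested). The steps were tested on simulated data in which libraries varied independently, so the separation of replicate 1 was not covered. Differences within replicates are differences of log2 CPM with a prior count of 2. Alternatives were DESeq2 size factors, library totals only, no filter, at least 10 counts in 3 libraries, DESeq2 1.42.0, limma 3.58.1 on voom values and on log2(FPKM + 1) or log2(FPKM + 0.1) with a filter of 0.5 FPKM or none, the 6 libraries compared, a replicate block, a term for replicate 1, and each library left out; replicates 2 and 3 only was chosen after seeing the data. Plots used Python 3.11.15 and matplotlib 3.10.9.

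Same-numbered libraries of adjacent time points deviated together from their time point means, with correlations of 0.743, 0.386 and 0.452 for replicates 1 to 3 between 4.5DDC and 5.5DDC and 0.454, 0.367 and 0.197 between 5.5DDC and 6.5DDC, all over the limit of 0.1 used for pairing. Libraries with different numbers also correlated among replicates 2 and 3. Replicate 3 of the earlier and replicate 2 of the later time point gave 0.390 in the first interval and 0.405 in the second. Replicate 2 of the earlier and replicate 3 of the later gave 0.291 and 0.225. Replicate 1 was thus set apart by its number, and replicates 2 and 3 less clearly. The source of this is not given in the sources used here.

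Every member is accounted for. Members called in any comparison, the most abundant member of each role and ligands that averaged 1 FPKM or more at a time point are given by library. From each further list, genes called from 4.5DDC to 6.5DDC that averaged 2 FPKM or more at whichever time was higher are named, at most 4 by size of the change, and 1 floor plate marker is not reported here; other names, such as Etv4, Fgf9 and Spry4, and the rule for the printed promoters were chosen after the values or sequences had been seen. The members and lists were chosen with earlier results of these data known. Lists without a call in either direction from 4.5DDC to 6.5DDC, with all libraries, were the oligodendrocyte precursor (3 tested), pluripotent cell (3) and endoderm (4) markers and the isthmus and rhombomere genes (7). With a term for replicate 1, 3 endoderm markers rose, and of the oligodendrocyte precursor markers 1 rose and 2 fell. The latter numbers were 0 and 2 with replicates 2 and 3 only and 1 and 1 with DESeq2. In these fits 29.7%, 31.3% and 26% of all genes with an adjusted p were called in either direction. Of 4 tested endothelium and blood markers 1 rose, below the level for naming, beside 9.21% of all tested genes. No list had a call within a single interval.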

Additional observations from a re-analysis of the deposited data

How the results depend on the processing

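Of the 7 members called from 4.5DDC to 6.5DDC, Etv5 and Fgf14 kept the call in all 22 alternatives, Fgf11 in 21, Spred2 in 18, Fgf15 in 15 of the 21 that gave an adjusted p (DESeq2 gave none), Fgf12 in 14 and Fgfr1 in 8, and none changed sign. For the interval 4.5DDC to 5.5DDC, Etv5 was called with DESeq2 and with replicates 2 and 3 only, and Fgf15 with a term for replicate 1, so 1 member in each against 0, beside 495 of 13018 genes, 3.31% and 3.28%. For 5.5DDC to 6.5DDC DESeq2 called 3, the term for replicate 1 gave 4 and replicates 2 and 3 only gave 2, beside 671 of 13303 genes, 4.30% and 4.97%. From 4.5DDC to 6.5DDC, 5 members rose with replicates 2 and 3 only, against 3. The number that fell, 4, became 2 with limma on log2(FPKM + 1) or log2(FPKM + 0.1), 1 with limma on log2(FPKM + 1) without a filter, 2 in the fit of the 6 libraries compared and 8 with a term for replicate 1, where 29.7% of all genes were called in either direction. For any difference between the 3 time points, 5 became 3 with library totals only or voom, 1 with limma on each of the 3 FPKM settings, 9 with a term for replicate 1 (22.3% of all genes) and 8 with replicates 2 and 3 only (22.7%). The causes were not tested.

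Leaving out 1 library gave 0 calls in each interval, 2 to 4 members that rose, 1 to 4 that fell, 1 to 3 called across the 3 time points, and a median log2 fold change of the members from 4.5DDC to 6.5DDC between -0.19 and 0.035; within replicate 1 the median was -0.21, against -0.04.

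Not every library correlated best with its own number. Between 4.5DDC and 6.5DDC the same-numbered libraries correlated at 0.383, -0.04 and -0.22. Only replicate 1 was over the limit of 0.1 used for pairing between these time points. With a replicate block 9 members were called there (Fgf13 at an edgeR adjusted p of 0.00918 and Fgf9 at 0.0437 in addition to the 7), 4 of them higher and 5 lower, beside 23.2% of all genes, and 7 across the 3 time points, beside 14.8%. With the block, 4 neuron, 5 neural crest and 3 endoderm markers rose, and of the oligodendrocyte precursor markers 1 rose and 2 fell. Within each interval the block called 0 members, as without it, beside 1.44% and 1.32% of all genes, against 0.0746% and 0.224%.

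The first-interval changes of Fgfr1 (0.01) and Spred2 (-0.01) had no stable sign. Fgfr1 was at -0.05 without replicate 3 of 4.5DDC, -0.10 without replicate 1 of 5.5DDC and -0.087 with replicates 2 and 3 only, and at 0.067 without replicate 2 of 4.5DDC. Spred2 was at 0.018 with library totals only, 0.015 without a filter, 0.031 with voom, 0.020 with log2(FPKM + 1), filtered or not, 0.022 with log2(FPKM + 0.1), 0.036 without replicate 2 of 4.5DDC, 0.025 without replicate 2 of 5.5DDC and -0.043 without replicate 1 of 4.5DDC. Of 18 secreted ligands, 8 had at most 3 counts in every library, where low depth and absence cannot be told apart.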
